A study of Mus musculus with 8 samples.

Results

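The neurotrophins and their receptors were followed here through 6 genes, taken by symbol from the 54232 genes that the files list: the ligand genes Bdnf and Ntf3, the receptor tyrosine kinase genes Ntrk2 and Ntrk3, the death-domain receptor gene Ngfr, and Sort1, a co-receptor and sorting receptor. All 6 symbols matched 1 gene each. Nuclei were isolated from a frozen cube, 2 mm on a side, of forebrain next to the lesion site in male Swiss Webster mice aged 10 weeks, and sequenced with a droplet-based 3′ single-nucleus RNA assay. The 8 libraries fall into 4 groups of 2: control surgery, BCAS (a surgery that the study's title ties to cerebral hypoperfusion), TBI (traumatic brain injury) and BCAS+TBI. The labels number the libraries as biological replicates, give no time between surgery and collection, and do not say whether 1 library is 1 animal, so p-values measure the spread between these libraries.

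Neurotrophins are small secreted proteins that neurons and glia use for survival, growth and plasticity. They are made as precursors and cleaved by proteases. The mature BDNF protein binds TrkB, the product of Ntrk2, and mature NT-3, the product of Ntf3, binds mainly TrkC, the product of Ntrk3. The ligand activates the receptor's kinase, and the signal runs through the Ras-ERK, PI3K-AKT and phospholipase C pathways. The uncleaved precursors bind p75, the product of Ngfr, together with sortilin, the product of Sort1. Ntrk2 and Ntrk3 also give truncated proteins without a kinase domain, and astrocytes are known for the truncated form of TrkB. Counts per gene cannot tell these forms apart, so every value below is for all transcripts of a gene.

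In GENCODE M21 (GRCm38) Bdnf lies at chr2:109674700-109727007 on the plus strand, and Ntf3 at chr6:126101412-126166910 on the minus strand. Ntrk2 lies at chr13:58806569-59133970 (plus) and Ntrk3 at chr7:78175959-78738012 (minus), the longest of the 6 loci. Ngfr lies at chr11:95568818-95587735 (minus) and Sort1 at chr3:108284082-108361511 (plus). Bdnf is overlapped by 1 annotated gene on the other strand and Sort1, Ntrk2 and Ntrk3 by annotated genes on both strands, 2 for Sort1 and 4 each for Ntrk2 and Ntrk3. Whether the counting used strand is not given in the sources used here, so reads of these neighbours cannot be fully told apart from the named genes.

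The promoter windows of the ligand genes are shown because Bdnf and Ntf3 shared their highest level in 1 cell class (dentate granule neurons, below), while Bdnf is known as a gene with many alternative starts, some of them driven by neuronal activity through CREB. The RefSeq promoter table (GRCm38.p6) held 11 windows of 250 bases upstream of a start for 4 of the genes, 7 of them for Bdnf, 2 for Ntf3, and 1 each for Ntrk2 and Ngfr. They were searched on both strands for the short form of the cAMP response element, CGTCA or TGACG, which also forms part of the full site TGACGTCA. Only 1 of the 11 windows held the short form, the Bdnf window at chr2:109692186-109692435, and it stands 35 bases before the start. It was present in 17.8% of all 32851 windows in the table and the full site in 1.55%. The short form is in capitals in the Bdnf window, and the Ntf3 window at chr6:126164961-126165210 (minus strand) held none.
Bdnf: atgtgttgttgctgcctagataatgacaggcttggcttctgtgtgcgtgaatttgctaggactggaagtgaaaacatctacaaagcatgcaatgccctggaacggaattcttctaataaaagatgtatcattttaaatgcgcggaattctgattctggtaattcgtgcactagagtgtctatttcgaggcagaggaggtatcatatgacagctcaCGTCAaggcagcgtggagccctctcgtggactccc
Ntf3: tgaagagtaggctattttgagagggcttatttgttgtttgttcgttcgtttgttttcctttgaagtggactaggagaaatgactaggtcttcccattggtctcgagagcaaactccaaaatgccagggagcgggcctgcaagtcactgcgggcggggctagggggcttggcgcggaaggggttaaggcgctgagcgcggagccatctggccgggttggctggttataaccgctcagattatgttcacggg
A match of these letters is a description of the window and not a measured binding site. The 3′ counts do not show which start was used.

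The files held 6191 to 7882 barcodes per library, against a stated target of 3000 per sample, and 45560 nuclei were kept in all, of which 33015 (72.5%) could be placed in a cell class by their marker genes. Names rest on markers alone (astrocyte-like and so on) and are written without the suffix. Oligodendrocyte precursors and striatal projection neurons were placed with a looser limit on neuron markers. On a scale where 1 is the median of clear nuclei of a class, precursors scored 0.671 for inhibitory markers. Striatal neurons scored 0.621 for excitatory markers. The part of other neurons' RNA in the levels of these 2 classes was not tested. Levels are UMIs of a gene per 1000000 UMIs of that class in that library (CPM), over 20 separate classes and the totals of excitatory and inhibitory neurons, which hold a further 10079 and 1963 nuclei with no subclass. The libraries formed 2 sets by depth, split at the largest gap in total UMIs and each with 1 library of every group: set 1 (control 1, BCAS 1, TBI 1 and BCAS+TBI 2) had 28118725 to 33363564 UMIs, 1.2% to 2.77% of them mitochondrial, and set 2 (the other 4) had 42651388 to 56135192 UMIs, 0.511% to 1.04% of them mitochondrial. The set was therefore a term in every comparison of groups. Erythrocyte markers ranged from 58.8 to 991 CPM over the 8 libraries, and any 2 libraries shared 5 to 20 barcodes. RNA of excitatory neurons was present in every class: Slc17a7, which glia should lack, stood in astrocytes at 19.3% of its excitatory level, at median depths of 1957.5 and 6695 UMIs per nucleus. A member's level at or below that share in the same class is read as background.

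Among the ligand genes, Bdnf RNA was mainly excitatory, with 78.5% of its 8382 UMIs in excitatory nuclei. Dentate granule neurons of the hippocampus had the highest level, at 81.9 CPM ± 19.2 (SD over 8 libraries, 694 UMIs), with a range of 46.3 to 108. Upper-layer cortical neurons followed at 48.2 CPM ± 6.08, and hippocampal CA pyramidal neurons at 43.2 CPM ± 18.7. Mid-layer cortical neurons had 31.7 CPM ± 10.7, layer 5 and subplate neurons 25.8 CPM ± 9.81, and thalamic neurons 25.4 CPM ± 6.59. Layer 6 corticothalamic neurons had 12.6 CPM ± 4.17, the lowest of the excitatory classes, although Slc17a7 stood at 152% of the excitatory average there. Inhibitory neurons had 3.56 CPM ± 1.4, which is 9.41% of the excitatory level beside 6.37% for Slc17a7. Slc17a6, another excitatory marker, had 10 CPM in inhibitory and 76.2 CPM in excitatory nuclei, a larger share than that of Bdnf. The Bdnf of inhibitory neurons is therefore not told apart from background. In astrocytes Bdnf had 11.3 CPM ± 4.89 (79 UMIs), 29.4% of the excitatory level beside 19.3% for Slc17a7. Oligodendrocytes, their precursors, mural cells, fibroblasts, choroid plexus and Pvalb interneurons were all below the share of Slc17a7, so their Bdnf is read as background. For fibroblasts, on 10 Bdnf UMIs, this depends on the marker, since Slc17a6 had 15.2 CPM there, a smaller share than that of Bdnf. Microglia and endothelial nuclei were above the share of Slc17a7, on only 8 and 17 Bdnf UMIs.

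Ntf3 was narrower still. Dentate granule neurons had 52.5 CPM ± 10.6 (451 UMIs; lowest 34.9, median 53.9, highest 67.2), and these 1150 nuclei, 2.52% of those kept, held 25% of all 1806 Ntf3 UMIs. The next class, upper-layer cortical neurons, had 9.04 CPM ± 2.85, with 13.9 CPM in its highest library. No dentate library overlapped with it. Mid-layer and layer 5 neurons had 0.519 and 0.665 CPM, on 3 and 4 UMIs. Inhibitory neurons had 4.42 CPM ± 1.81 (116 UMIs), 58.3% of the excitatory level where Slc17a7 had 6.37%, with 6.06 CPM ± 5.48 in Lamp5 and 4.19 CPM ± 2.73 in Pvalb interneurons. Endothelial nuclei had 6.62 CPM ± 3.78 on 12 UMIs, at least 1 in each library. No Ntf3 UMI was counted in Vip interneurons, microglia, fibroblasts or choroid plexus, which allows levels of up to 1.83, 4.06, 3.80 and 3.35 CPM in the pooled libraries (3 counts over the class, counting error only).

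Of the receptor genes, Ntrk2 was detected in every class and had its highest mean outside the excitatory neurons. Astrocytes had 1242 CPM ± 64.0 (lowest 1148, median 1231, highest 1340), 193% of the excitatory level. Lamp5 interneurons had 1110 CPM ± 194, and the neighbouring mid-layer cortical neurons 898 CPM ± 283. The lead of astrocytes over Lamp5 depended on the library set. In set 1 astrocytes had 1148 to 1318 CPM and Lamp5 862 to 1089 CPM. In set 2 they overlapped, at 1198 to 1340 and 1177 to 1382 CPM, and mid-layer neurons reached 1384 CPM in control 2. Pvalb, Sst and Vip interneurons had 844, 816 and 722 CPM, layer 6 corticothalamic and upper-layer neurons 767 and 726. Oligodendrocyte precursors had 591 CPM ± 52.8 and striatal projection neurons 557 CPM ± 92.0. Dentate granule neurons, the class with the highest Bdnf and Ntf3, had the lowest mean Ntrk2 of the neuronal classes at 352 CPM ± 56.1, next to hippocampal CA neurons at 393 CPM ± 42.6. Choroid plexus had 324 CPM ± 76.4, 51.6% of the excitatory level beside 11.2% for Slc17a7. Mature oligodendrocytes, microglia, endothelial, mural and fibroblast nuclei had 79.7 to 138 CPM, each below the share of Slc17a7, which is read as background.

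Ntrk3 had another order. Dentate granule neurons were highest at 916 CPM ± 171 (lowest 641, median 955, highest 1079), and Pvalb interneurons had 858 CPM ± 170. Striatal projection neurons had 778 CPM ± 123, oligodendrocyte precursors 708 CPM ± 113, hippocampal CA neurons 706 CPM ± 107 and upper-layer neurons 693 CPM ± 111. Mid-layer cortical neurons, which were among the highest for Ntrk2, had 168 CPM ± 23.6, and thalamic neurons 190 CPM ± 37.3. Interneurons spread widely, from 858 CPM in Pvalb through 492 in Vip and 275 in Sst to 217 in Lamp5, the interneurons with the highest Ntrk2. Astrocytes had 164 CPM ± 47.2, 30.6% of the excitatory level beside 19.3% for Slc17a7. Fibroblasts had 489 CPM ± 171 (364 UMIs), 84.7% beside 34.4%. Mature oligodendrocytes, microglia, endothelial, mural and choroid plexus nuclei had 11.3 to 114 CPM, all below the share of Slc17a7.

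Ngfr was at the edge of detection. It had 131 UMIs in all 45560 nuclei, in 122 of them. The highest mean was 3.70 CPM ± 3.68 in oligodendrocytes, on 15 UMIs, with 0 in control 2 and TBI 2. The mean of 3.04 CPM in fibroblasts rested on 2 UMIs, both in BCAS+TBI 1. Of the 20 classes 9 had no Ngfr UMI at all. Its levels therefore have no order that the counts could show, and it passed the filter on low counts in 0 classes.

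Sort1 was present in all classes within a narrower range. Oligodendrocytes had 324 CPM ± 41.0 (lowest 267, median 319, highest 373), and oligodendrocyte precursors, the stage before them, had the lowest level of all at 36.1 CPM ± 12.6 (lowest 15.1, median 35.6, highest 54.7). Layer 5 and subplate neurons (228 CPM ± 37.9), microglia (227 CPM ± 55.4), mural cells (225 CPM ± 78.2) and hippocampal CA neurons (224 CPM ± 25.5) were nearly level. Astrocytes had 157 CPM ± 14.5, and the interneuron classes 103 to 123 CPM. The plot of levels by class shows these patterns in each library.

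**Figure D1:**
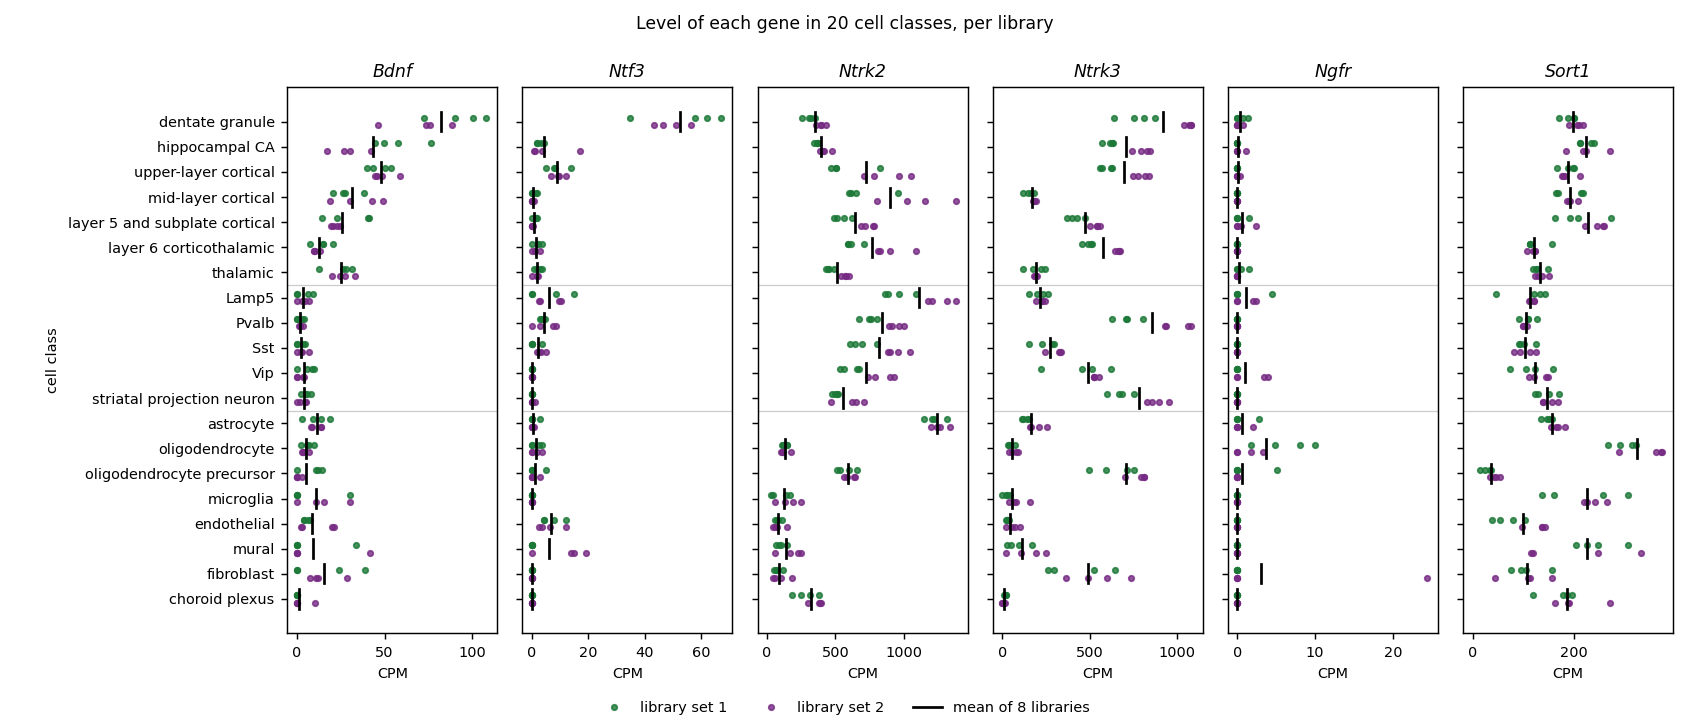
Level of each gene in CPM (horizontal axis, linear, own scale per gene) in 20 cell classes; points are libraries, coloured by library set, and bars are means of 8 libraries. Bdnf and Ntf3 are highest in dentate granule neurons (81.9 and 52.5 CPM), Ntrk2 in astrocytes (1242), Ntrk3 in dentate granule neurons (916) and Sort1 in oligodendrocytes (324), while Ngfr stays at 3.70 CPM or below.

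The order of levels was tested between neighbouring classes by an exact two-sided sign-flip permutation over the 8 libraries, on log2(CPM + 1). None of 114 neighbouring pairs passed after Benjamini-Hochberg adjustment (smallest adjusted p = 0.127), and 13 had an unadjusted exact p under 0.05. The smallest p that 8 libraries allow is 0.00781. It was reached by 7 pairs, where 18 would have been needed to pass. Among the 7 was Ntf3 in dentate granule against upper-layer neurons, higher in 8 of 8 libraries by 2.44 on the log2 scale. For Bdnf the same pair differed by 0.72 on the log2 scale, in 7 of 8 libraries (exact permutation p = 0.0156, adjusted p = 0.178). Sort1 in oligodendrocytes against layer 5 neurons differed by 0.52, also in 7 of 8 (exact permutation p = 0.0156, adjusted p = 0.178).

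Over all 190 pairs of classes per gene, a comparison added after the data were seen, 614 of 1140 pairs (53.9%) passed in the same exact permutation test. Dentate granule neurons were above all 19 other classes for Bdnf and for Ntf3, and oligodendrocytes above all 19 for Sort1. Neighbouring pairs in these and the following counts had the same exact p as in the test above, where none passed. For Bdnf in dentate granule against upper-layer neurons and Sort1 in oligodendrocytes against layer 5 neurons, exact permutation gave p = 0.0156 (adjusted p = 0.178 there). They passed only in this larger set of 1140 pairs. For Ntrk2 astrocytes and Lamp5 interneurons were each above 18 classes and were not told apart from each other. For Ntrk3 dentate granule neurons were above 18 and not told apart from Pvalb interneurons. Oligodendrocyte precursors were below all 19 classes for Sort1. Upper-layer and hippocampal CA neurons were not told apart for Bdnf. The counts of pairs that passed were 103 for Bdnf, 66 for Ntf3, 157 for Ntrk2, 161 for Ntrk3, 127 for Sort1 and 0 for Ngfr (smallest adjusted p = 0.0537, exact permutation).

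The genes whose profile over the 20 classes was most like each member's were picked from 11533 genes by Pearson's r of the mean log2(CPM + 1), as a description only, since the classes share libraries and depth. For Bdnf they were Rtn4r (r = 0.93), which encodes the Nogo receptor, Glt8d2 (0.88) and Rasl10a (0.87). For Ntrk2 they were Nol4 (0.92), Dclk1 (0.92), which encodes a microtubule-associated kinase, and Pfkm (0.91), a phosphofructokinase gene. For Ntrk3 they were Klhl22 (0.89), Mmp16 (0.88) and Fam49a (0.88). The highest r were lower for Ntf3 (Lct, Wbp11 and Ppib at 0.71, 0.70 and 0.68) and for Sort1 (Myo18a, Gtf2a1 and Mettl7a1 at 0.72, 0.68 and 0.66). Ntf3 had 451 UMIs in dentate granule and 121 in upper-layer neurons, and 30 or fewer in each other class. Every r of Ntf3 carries that counting error. None is named for Ngfr, whose profile rests on too few UMIs. Between members the highest r was 0.50, for Bdnf with Ntf3, followed by 0.49 for Ntrk2 with Ntrk3.

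The study's title asks whether hypoperfusion worsens traumatic brain injury, and the design of 2 surgeries allows 4 comparisons: TBI averaged over BCAS, BCAS averaged over TBI, BCAS+TBI against TBI, and the interaction, which is the TBI effect with BCAS minus the TBI effect without it. Counts summed per library and class were fitted with edgeR's quasi-likelihood test over all genes. Of 132 pairs of a member and a class, 76 passed the filter on low counts: 10 for Bdnf, 4 for Ntf3, 21 for Ntrk2, 19 for Ntrk3, 22 for Sort1 and 0 for Ngfr. No member changed past the threshold in any of the 4 comparisons. Over all 192587 class-gene pairs the background was likewise low: 0.00831% of pairs passed for TBI, 0.0026% for BCAS, 0.00467% for BCAS+TBI against TBI and 0.0296% for the interaction. At an unadjusted p under 0.05 there were 2, 3, 7 and 10 of the 76 member pairs (2.63%, 3.95%, 9.21% and 13.2%), beside 4.45%, 3.92%, 4.57% and 4.92% of all pairs. Of the 10 for the interaction, 6 were Ntrk2, 3 Ntrk3 and 1 Bdnf, with 0 for Ntf3 and Sort1. Both the member pairs and all pairs include the excitatory and inhibitory totals, which hold the nuclei of their subclasses again. The median size of the member effects was 0.102, 0.0976, 0.171 and 0.223 on the log2 scale, at median standard errors of 0.13, 0.13, 0.18 and 0.25. A gene that is less abundant in a class cannot be told apart here from fewer of the nuclei that express it most.

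In dentate granule neurons, where it was highest, Bdnf had 100 and 73.7 CPM in control 1 and 2, 90.3 and 88.6 CPM in BCAS, 108 and 75.9 CPM in TBI, and 46.3 and 72.3 CPM in BCAS+TBI 1 and 2. Both BCAS+TBI libraries were below the other 6, the nearest being control 2. Astrocyte markers in the dentate nuclei summed to 1014 to 1182 CPM in BCAS+TBI and 748 to 1094 CPM in TBI. Oligodendrocyte markers there summed to 896 to 1313 CPM in BCAS+TBI and 423 to 820 CPM in TBI, with no overlap between these groups, and to 805 to 845 CPM in control and 787 to 1113 CPM in BCAS. The part of these markers in the difference was not tested. The fitted difference from TBI was -0.66 (log2, SE 0.20, unadjusted p = 0.00364), and its edgeR adjusted p was 0.945, so it did not pass; within sets it was -0.57 and -0.70. Averaged over BCAS, the TBI difference was -0.31 (SE 0.14, adjusted p = 1). Without BCAS, TBI was above control in both sets, and the interaction was -0.421 in set 1 and -0.964 in set 2. Ntf3 in the same nuclei had 67.2 and 56.6 CPM in control, 58.1 and 46.5 in BCAS, 62.3 and 43.4 in TBI, and 51.3 and 34.9 in BCAS+TBI. Its groups overlapped, and the differences were -0.26 for TBI and -0.27 for BCAS (SE 0.18 each, adjusted p = 1 in edgeR). Within sets 1 and 2 they were -0.414 and -0.118 for TBI and -0.513 and -0.0207 for BCAS.

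In cortical excitatory neurons the Bdnf differences did not pass either. In upper-layer neurons it had 43.4 and 44.4 CPM in control, 53.8 and 45.9 in BCAS, 40.2 and 48.6 in TBI, and 59.0 and 50.03 in BCAS+TBI, where groups overlapped. In mid-layer neurons it had 20.5 and 48.9 CPM in control, 27.4 and 18.8 in BCAS, 38.5 and 42.6 in TBI, and 30.2 and 26.5 in BCAS+TBI. The smallest p of any member for BCAS averaged over TBI came from these nuclei, a difference of -0.70 (SE 0.22, unadjusted p = 0.00504, edgeR adjusted p = 1). It was -0.0604 in set 1 and -0.907 in set 2. In astrocytes Bdnf had 9.18 and 13.76 CPM in control, 13.73 and 8.735 in BCAS, 19.2 and 14.1 in TBI (23 and 7 UMIs), and 8.36 and 3.18 in BCAS+TBI 1 and 2 (7 and 2 UMIs). BCAS+TBI 1 was close to BCAS 2 and control 1. The difference from TBI was -1.47 (SE 0.58, edgeR adjusted p = 1).

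Ntrk2 in cortical excitatory neurons came nearest to the threshold. In upper-layer neurons it had 503 and 1056 CPM in control 1 and 2, 468 and 707 CPM in BCAS, 501 and 785 CPM in TBI, and 967 and 823 CPM in BCAS+TBI 1 and 2. Within set 1 BCAS+TBI 2 was the highest library by far, and within set 2 BCAS+TBI 1 was below control 2. The interaction was 0.90 (log2, SE 0.20, unadjusted p = 0.000139) with an edgeR adjusted p of 0.178, and was 0.82 in set 1 and 0.88 in set 2. BCAS+TBI against TBI gave 0.51 (SE 0.14, unadjusted p = 0.00124, adjusted p = 0.763), with 0.71 in set 1 and 0.30 in set 2. Mid-layer neurons had a similar interaction of 0.89 (SE 0.21, adjusted p = 0.296), on 654 and 1384 CPM in control, 613 and 806 in BCAS, 596 and 1020 in TBI, and 1155 and 957 in BCAS+TBI. The upper-layer interaction was 1.18 without BCAS+TBI 1 and 1.16 without control 1, in a range of 0.568 to 1.18 when leaving out a library. The mid-layer interaction was 1.13 without each of the same libraries. Each of these fits had a group with 1 library. All 8 astrocyte markers were detected in upper-layer nuclei, where they summed to 304 to 367 CPM in BCAS+TBI, 315 to 335 in TBI, 334 to 483 in BCAS and 309 to 358 in control, against 12529 to 16364 CPM in astrocytes. In mid-layer nuclei they summed to 298 to 459 CPM in BCAS+TBI and 191 to 312 CPM in the other groups. Their part in the Ntrk2 result was not tested.

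In astrocytes, where mean Ntrk2 was highest, the 4 groups overlapped: 1205 and 1340 CPM in control, 1318 and 1198 in BCAS, 1148 and 1244 in TBI, and 1267 and 1218 in BCAS+TBI. The TBI difference was -0.05 and the BCAS difference 0.03 (SE 0.089 each, edgeR adjusted p = 1). Ntrk3 in dentate granule neurons had 808 and 1075 CPM in control, 753 and 1039 in BCAS, 870 and 1079 in TBI, and 1064 and 641 in BCAS+TBI 1 and 2. The groups overlapped, with differences of -0.03 for TBI and -0.16 for BCAS (SE 0.095 each, adjusted p = 1). In Sst interneurons Ntrk3 had 229 and 327 CPM in TBI and 244 and 154 in BCAS+TBI, against 283 and 333 in control and 298 and 329 in BCAS. This was the smallest p of any member for TBI, a difference of -0.39 (SE 0.14, unadjusted p = 0.0127, adjusted p = 1), and -0.63 and -0.23 within sets 1 and 2.

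Sort1 did not pass in any class. In oligodendrocytes, its highest class, it had 315 and 373 CPM in control, 323 and 290 in BCAS, 291 and 362 in TBI, and 372 and 267 in BCAS+TBI 1 and 2. The TBI difference was -0.000212 and the BCAS difference -0.11 (SE 0.13 each, edgeR adjusted p = 1). Within sets 1 and 2 the TBI difference had opposite signs, -0.193 and 0.157, and the BCAS difference was -0.0458 and -0.164. None of its 22 classes had an unadjusted p under 0.05 for TBI, and 1 did for BCAS, hippocampal CA neurons at -0.24 (SE 0.11). The plots of levels by group and of all fitted surgery effects show these values.

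**Figure D2:**
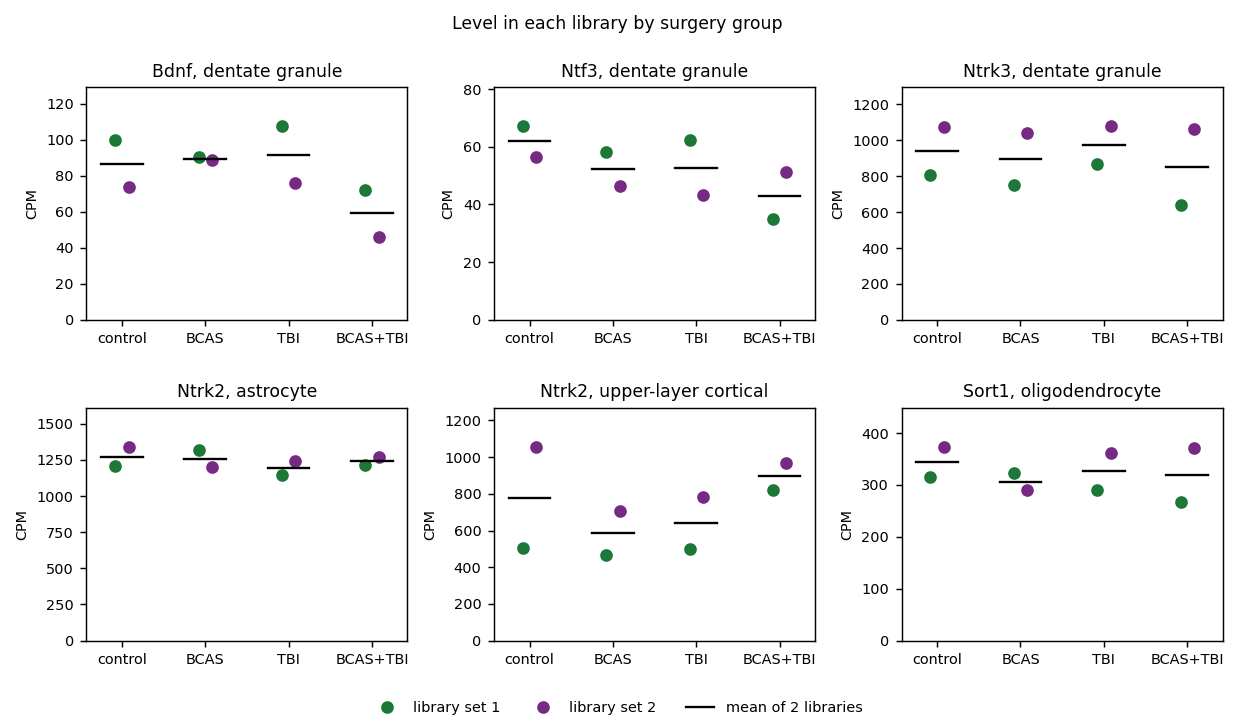
Level in CPM (vertical axis from 0) in each library by surgery group for 6 gene and class combinations; points are libraries, coloured by library set, and lines are means of 2 libraries. Bdnf in dentate granule neurons is 46.3 and 72.3 CPM in BCAS+TBI, below the other 6 libraries, and Ntrk2 in astrocytes lies between 1148 and 1340 CPM in all groups.

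**Figure D3:**
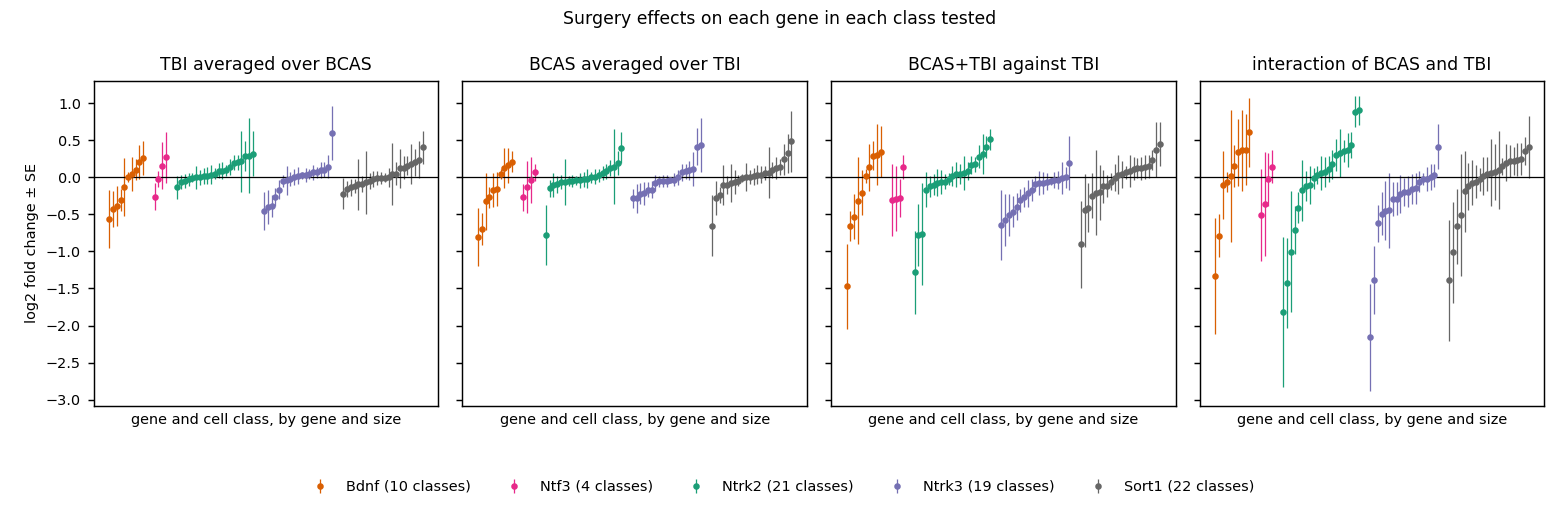
Log2 fold change with its standard error (vertical axis) for each of the 76 tested pairs of gene and class in the 4 comparisons, ordered by gene and by size. No pair passed the adjusted threshold, and the pair with the smallest p is Ntrk2 in upper-layer neurons, with an interaction of 0.90.

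Ntrk2 and Ntrk3 differed between the library sets in most classes tested, and each set holds every surgery group once. Set 2 against set 1 called 32 of the 76 member pairs (42.1%), beside 32.8% of all pairs. Of the 76 pairs tested, 31 were called higher in set 2, beside 14.3% of all pairs tested, and 1 was called lower, beside 18.4%. Ntrk2 was higher in 14 of 21 classes and Ntrk3 in 14 of 19, and both counts include the excitatory and inhibitory totals, which hold the nuclei of their subclasses again. All 14 classes with higher Ntrk2 were neuronal, at 0.30 (striatal projection neurons) to 0.74 (upper-layer neurons) on the log2 scale. In excitatory neurons as a whole Ntrk2 had 465, 469, 483 and 594 CPM in set 1 and 645, 692, 728 and 810 CPM in set 2. Ntrk2 in astrocytes had means of 1222 and 1262 CPM in the sets and was not called.

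Ntrk3 in excitatory neurons had 444 to 469 CPM in set 1 and 577 to 601 CPM in set 2, with no overlap and a difference of 0.58 (SE 0.043, adjusted p = 1.01e-05 in edgeR). In dentate granule neurons it had 641 to 870 CPM in set 1 and 1039 to 1079 CPM in set 2, a difference of 0.58 (SE 0.096, adjusted p = 7.08e-05). Sort1 was called in 3 of 22 classes, all higher in set 2. Bdnf was called once, lower in set 2, in hippocampal CA neurons: 44.5 to 76.6 CPM in set 1 and 17.4 to 42.3 CPM in set 2, a difference of -0.84 (SE 0.23, adjusted p = 0.00898). Ntf3 was called in 0 of 4 classes (smallest unadjusted p = 0.202). Depth and mitochondrial share moved with the set, and their part was not tested. The plot of set differences shows the receptors and ligands side by side.

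**Figure D4:**
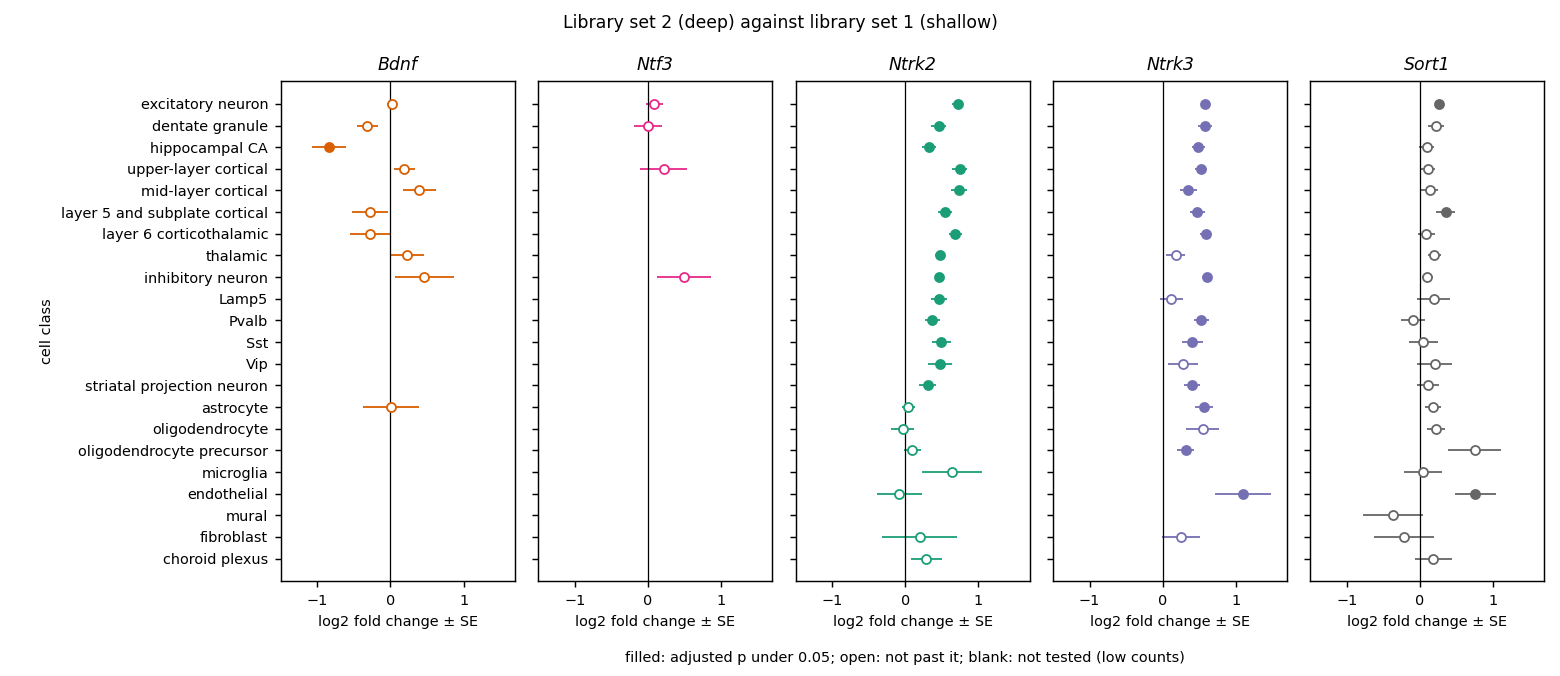
Log2 fold change of library set 2 against set 1 with its standard error (horizontal axis) by class, for 5 genes; filled points passed the adjusted threshold, open points did not, and blank rows were not tested for low counts. Ntrk2 is higher in set 2 in 14 classes, all neuronal, and Ntrk3 in 14, while Bdnf is lower in 1 and Ntf3 differs in none.

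The rest of the pathway was read from 5 lists with 108 genes, of which 107 are in the files and 102 were tested in at least 1 class (1515 class-gene pairs). In the 4 surgery comparisons 0, 0, 1 and 1 of these pairs passed, both times Sorcs1 in Pvalb interneurons. Sorcs1 encodes a receptor of the sortilin family. It had 72.9 and 53.3 CPM in control, 59.3 and 65.3 in BCAS, 140 and 75.5 in TBI, and 18.9 and 12 CPM in BCAS+TBI 1 and 2, on 11 and 3 UMIs. Both BCAS+TBI libraries were below the other 6. BCAS+TBI against TBI gave -2.52 (SE 0.36, edgeR adjusted p = 0.00393) and the interaction -2.60 (SE 0.48, adjusted p = 0.0215). Both calls were lost with DESeq2 (adjusted p = 0.227 and 0.978) and without the set term (adjusted p = 1). The replicate block ended both as well (adjusted p = 1). The interaction was lost in 7 of 18 alternatives, which were these 3, a minimum count of 30 and keeping doublets (adjusted p = 0.0814 each), and leaving out BCAS 2 (-2.06, adjusted p = 0.353) or BCAS+TBI 2 (-2.25, adjusted p = 0.104). The fit without the set term and the replicate block called 0 of 192587 pairs in both comparisons, so their losses are not particular to Sorcs1. For BCAS averaged over TBI, Sorcs1 in these nuclei had a difference of -1.22 (SE 0.24, adjusted p = 0.112). Astrocyte markers in Pvalb nuclei summed to 344 to 445 CPM in BCAS+TBI, where 1 of 8 (Ranbp3l) was at 0, and to 406 to 581 CPM in TBI, and their part was not tested.

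Among the other ligands, receptors and co-receptors (12 genes tested, 172 pairs), the median log2 change was -0.00768 for TBI and -0.0175 for BCAS, beside 0.00335 and -0.000871 over all pairs. It was -0.0511 for BCAS+TBI against TBI and -0.119 for the interaction, beside 0.00598 and 0.0112. Ntf5, which encodes another ligand of TrkB, had 20 UMIs over the 20 classes. None of the 760 pairs for 45 adaptors and kinases passed in the surgery comparisons. The nearest was Irs2, an insulin receptor substrate gene, in upper-layer neurons: 23.1, 37.5, 33.2 and 28.9 CPM in the 4 libraries with TBI and 19.7, 15.6, 13.9 and 13.8 CPM in the 4 without. The groups did not overlap, and the difference was 1.03 (SE 0.20, edgeR adjusted p = 0.142). Tiam1, which encodes an exchange factor for Rac, had 239 and 247 CPM in Vip interneurons in control, 147 and 208 in BCAS, 212 and 217 in TBI, and 101 and 95.7 in BCAS+TBI. Both BCAS+TBI libraries were below the other 6, and the difference from TBI was -1.14 (SE 0.30, adjusted p = 0.693).

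None of the 215 pairs for 16 genes of precursor cleavage and release passed in the surgery comparisons. Pcsk1, which encodes a prohormone convertase, had 74.4 and 65.4 CPM in BCAS+TBI in upper-layer neurons and 34.2 and 44.1 CPM in TBI, a difference of 0.825 (SE 0.19, adjusted p = 0.452 in edgeR). The 15 regulators of Bdnf transcription gave 241 pairs, with none past the threshold. Npas4, an activity-induced transcription factor gene, had a TBI difference of 0.87 in upper-layer neurons (SE 0.24, adjusted p = 0.801). It had 15.8 and 18 CPM in control, 5.57 and 5.83 in BCAS, 20.1 and 16.9 in TBI, and 20.6 and 14.4 in BCAS+TBI. TBI and BCAS+TBI each overlapped control, and the BCAS libraries were the lowest of the 8.

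The 15 genes of the activity and Trk response gave 135 pairs, 0 of them past the threshold in the surgery comparisons. Their median change was 0.16 for TBI, -0.12 for BCAS and 0.30 for the interaction, beside 0.00335, -0.000871 and 0.0112 over all pairs. Vgf, which encodes a secreted neuropeptide precursor induced by BDNF, had 21.4 to 50 CPM in the 4 libraries with TBI in dentate granule neurons and 12.3 to 23.7 CPM in the 4 without, where the groups overlapped (difference 1.15, SE 0.26, edgeR adjusted p = 0.348). Arc, an immediate early gene of synaptic plasticity, had interactions of 1.88 in mid-layer and 1.91 in upper-layer neurons (SE 0.35 and 0.37, adjusted p = 0.0841 each). In upper-layer neurons Arc had 25.6 and 50.1 CPM in control, 17.6 and 16.4 in BCAS, 15.6 and 31.2 in TBI, and 42.4 and 31.7 in BCAS+TBI, and control 2 was above both BCAS+TBI libraries. For BCAS averaged over TBI, Arc had differences of -0.77 in layer 6 and -0.944 in layer 5 neurons (SE 0.17 and 0.23, adjusted p = 0.481 and 0.509). For the library set, 445 of the 1515 list pairs (29.4%) were called, beside 32.8% of all pairs. Those with the smallest p were Homer1, which encodes a postsynaptic scaffold protein, in upper-layer (0.874, SE 0.087) and layer 6 neurons (1.03, SE 0.11), and Rps6ka3, a ribosomal S6 kinase gene, in layer 6 neurons (0.981, SE 0.097), all higher in set 2.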

How the data were processed

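Single-nucleus 3′ RNA libraries (8, 2 per group) were analysed. The authors deposited UMI counts per gene and barcode. Per the file headers the program was Cell Ranger 7.0.0. The builds GRCm38 and mm10 and the tool Seurat are named in the submitters' processing notes. Whether introns or strand entered the counting is not given in the sources used here. A barcode was used if it had 500 or more UMIs and 300 or more genes, with mitochondrial UMIs at 5% or less (4922 of 53390 failed), and the 6% of each library with the highest Scrublet scores (2908) were removed as likely doublets, because its automatic threshold marked 0% to 0.0525% in 7 libraries and 12.8% in control 1. Nuclei were placed in classes by marker genes, with cut-offs tuned after the data were seen. The endothelial class also carries haemoglobin genes. Counts were summed per library and class (at least 20 nuclei in each library) and fitted with edgeR 4.0.16 (quasi-likelihood, TMM, minimum count 10, terms for group and library set), with Benjamini-Hochberg adjustment over all class-gene pairs of a comparison and a threshold of 0.05. The fit and the sign-flip test were tested on simulated data. Genes named are all 6 members, the 3 most similar profiles of each (none for Ngfr, which had too few UMIs), and the listed pathway genes that passed or had the 3 smallest p in a comparison; Ntf5 was added after its values were seen. Some members of the pathway lists are not reported here. Alternatives were DESeq2 1.42.0, other normalization, filters, classes, doublet handling and leaving out each library. The members and lists were chosen with earlier results of these data known. Replicate numbers did not pair the libraries: same-number correlations of excitatory sums were 0.868 to 0.896 among control, BCAS and TBI and -0.93 to -0.888 with BCAS+TBI. Intervals of levels are SDs over libraries, and floors cover counting error only.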

Additional observations from a re-analysis of the deposited data

Results flagged for a closer look

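The TBI effect on Sorcs1, a sortilin-family receptor gene, in Pvalb interneurons differed with and without BCAS by -2.60 on the log2 scale (SE 0.48, edgeR adjusted p = 0.0215), by a test of that difference itself. It rests on 11 and 3 UMIs in BCAS+TBI 1 and 2, against 59 and 83 UMIs in TBI. The call was lost in 7 of 18 alternatives, among them DESeq2, the fit without the set term and the replicate block. The last 2 fits called 0 of 192587 pairs for the interaction, so their losses are not particular to Sorcs1. When leaving out a library the difference was -3.42 to -2.06.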

How the results depend on the processing

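No member was called for TBI or BCAS under any of 19 alternatives. For BCAS+TBI against TBI 1 member pair was called with no filter on low counts and without BCAS+TBI 1 (range 0 to 1 when leaving out a library). For the interaction 2 were called with no filter, without control 1 and without BCAS+TBI 1 (range 0 to 2); the pairs were Ntrk2 in upper-layer and mid-layer neurons. For the library set 22 to 33 pairs were called under the alternatives, 26 to 27 when leaving out a library. In the replicate block fit, which takes the label numbers in place of the set, no member was called in any surgery comparison, and the Sorcs1 calls were lost (-2.72 and -2.77, adjusted p = 1). That fit called 0 of 192587 pairs in each surgery comparison, so it cannot tell these genes from any other. No order of neighbouring classes passed under any alternative; class pairs that differed ranged from 553 to 564 of 1140 when leaving out a library.

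Differences that changed sign were all small and uncalled. Ntf3 in dentate neurons for BCAS was 0.0401 without high-UMI nuclei. Ntrk3 in dentate neurons for TBI was 0.00212 with the replicate block, 0.0724 with Leiden clusters and 0.0546 without high-UMI nuclei, and -0.107 to 0.0467 when leaving out a library. Sort1 in oligodendrocytes for TBI was 0.00343 with DESeq2, 0.00769 with RLE normalization, 0.0157 with a minimum count of 30 and 0.0341 in nuclei with at least 1000 UMIs, and -0.114 to 0.0996 when leaving out a library. Leaving out a library gave -0.0226 to 0.0644 for Ntrk2 in astrocytes and -0.199 to 0.00421 for Sort1 in oligodendrocytes, both for BCAS. The cause was not tested. Leaving out a library leaves an arm with 1, assumed to vary like the others. Leiden clusters gave no Sst, Pvalb or Vip class.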
